A study of Mus musculus with 6 samples.

Results

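The prostaglandin genes described here are 10 genes of prostanoid synthesis, breakdown and reception, found by their symbols among the 22966 genes of a count table from primary mouse hepatic stellate cells. They are the phospholipase gene Pla2g4a, the cyclooxygenase genes Ptgs1 and Ptgs2, the terminal synthase genes Ptges, Ptgis, Hpgds and Tbxas1, the dehydrogenase gene Hpgd and the receptor genes Ptger2 and Ptger4. The 10 genes were chosen by a reading of these same libraries, with their levels and their Cre over flox fold changes known, so their differences between the groups are given as a description. Where the fit over all genes puts one of them past its threshold, that gives its place in the fit and is not evidence for the difference. All 10 symbols had a row in the table.

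Prostanoids are short-lived lipid mediators. A phospholipase releases arachidonic acid from membranes, a cyclooxygenase turns it into the unstable endoperoxide prostaglandin H2, and a terminal synthase makes that into prostaglandin E2, prostaglandin D2, prostacyclin or thromboxane A2, each with its own receptors. In rodent liver, Kupffer cells, the resident macrophages, are a known source of prostaglandin D2, prostaglandin E2 and thromboxane, while prostacyclin synthase is a gene of vascular and mesenchymal cells.

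The samples were 3 RNA-seq libraries titled Cre and 3 titled flox. All 6 carry the same genotype label, BucheHep, and the same CCl4 label; CCl4 is a liver toxicant used to bring on fibrosis. The growth protocol names BucheΔHep mice, and the series title names butyrylcholinesterase, so the titles alone separate the groups. All 6 titles also share the prefix S2W, which the labels do not explain. No label gives the promoter that drives Cre, the dose or duration of CCl4 or the age of the mice, or tells separate animals from repeat libraries. Any p-value below therefore measures only the spread between these libraries, which may be technical.

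The libraries held 37273142 to 41006722 counts. Along principal component 1, which held 61.05% of the variance, the Cre libraries lay at -39.8 to -63.8, flox 1 and flox 2 at 64.3 and 89.3, and flox 3 at 6.61. Bche, which encodes butyrylcholinesterase, had 0.0489 to 0.375 CPM (counts scaled to a common library total with TMM factors) in Cre and 0.172 to 0.522 in flox, and the labels do not place its deletion in stellate cells. Of 14 stellate cell markers all were tested and 2 were higher in Cre; the collagen gene Col1a1 stood at 490.2 to 836 CPM in Cre and 243 to 797 CPM in flox, but the stellate marker Lrat at no more than 1.03 CPM in Cre and 2.49 CPM in flox. All 15 macrophage and Kupffer cell markers were tested, 13 were lower in Cre and 0 higher, none was at 0, and their summed level was 2438 to 2909 CPM in Cre and 8097 to 22682 CPM in flox, with flox 3 the lowest of the flox libraries. All 9 endothelial markers were tested and 1 was lower in Cre. They summed to 1953, 3165 and 2240 CPM in Cre 1, 2 and 3 and to 1492, 1209 and 3678 CPM in flox 1, 2 and 3. In such bulk samples, fewer cells of a type and less RNA per cell cannot be told apart.

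The promoter windows below are shown because they belong to the genes with the widest differences among the 10, Ptgs2, Hpgds and Tbxas1, and to Ptgs1, the cyclooxygenase gene set beside Ptgs2. Each runs from 250 bases before to 50 after the RefSeq start in GRCm38.p6, 5′ to 3′ on the gene's strand. They are chr1:150099781-150100080 on the plus strand for Ptgs2, chr2:36230176-36230475 on the plus strand for Ptgs1, chr6:65144681-65144980 on the minus strand for Hpgds, and chr6:38918736-38919035 on the plus strand for Tbxas1. Capitals mark matches to the 6 motifs searched.
Ptgs2: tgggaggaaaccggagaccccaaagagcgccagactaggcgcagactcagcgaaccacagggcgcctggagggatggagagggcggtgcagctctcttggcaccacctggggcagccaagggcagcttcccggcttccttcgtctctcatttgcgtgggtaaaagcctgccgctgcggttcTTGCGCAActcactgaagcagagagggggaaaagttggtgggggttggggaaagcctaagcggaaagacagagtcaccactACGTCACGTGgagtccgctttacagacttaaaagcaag
Ptgs1: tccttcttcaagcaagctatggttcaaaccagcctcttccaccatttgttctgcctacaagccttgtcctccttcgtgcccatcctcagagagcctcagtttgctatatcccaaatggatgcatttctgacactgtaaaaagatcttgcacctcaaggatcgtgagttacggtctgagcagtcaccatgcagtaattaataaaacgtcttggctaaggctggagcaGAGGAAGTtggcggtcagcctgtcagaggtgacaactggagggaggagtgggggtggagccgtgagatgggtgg
Hpgds: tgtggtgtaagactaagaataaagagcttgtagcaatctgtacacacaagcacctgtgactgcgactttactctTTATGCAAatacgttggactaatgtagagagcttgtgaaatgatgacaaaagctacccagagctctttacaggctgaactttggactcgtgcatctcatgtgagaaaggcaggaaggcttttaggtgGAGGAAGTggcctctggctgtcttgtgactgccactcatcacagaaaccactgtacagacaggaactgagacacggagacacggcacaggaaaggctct
Tbxas1: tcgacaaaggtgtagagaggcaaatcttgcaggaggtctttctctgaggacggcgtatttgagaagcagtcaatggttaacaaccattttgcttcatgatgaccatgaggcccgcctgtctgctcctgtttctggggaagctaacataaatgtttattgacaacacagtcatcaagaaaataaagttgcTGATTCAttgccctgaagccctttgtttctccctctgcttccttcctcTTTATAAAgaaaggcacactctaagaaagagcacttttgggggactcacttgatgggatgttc

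The motifs were chosen after some of these windows had been read and were searched on both strands: CACGTG (E-box), TGACGT (core of the cAMP response element), TTNNGCAA (C/EBP), TGANTCA (AP-1), TATAAA (a core promoter motif) and GAGGAAGT (core of the PU.1 site). The Ptgs2 window held the C/EBP motif from base -69 to -62, counted from the start site, and past the start an ACGTCA, the reverse complement of TGACGT, from 13 to 18 that overlaps a CACGTG from 17 to 22. The PU.1 core, which belongs to a transcription factor of macrophages and other myeloid cells, lay from -24 to -17 in Ptgs1 and from -49 to -42 in Hpgds. Hpgds also held a C/EBP match from -176 to -169, and Tbxas1 held an AP-1 match from -61 to -55 beside overlapping TATAAA matches. Of 32851 promoter windows of the same length, 7.15% held CACGTG, 7.51% TGACGT, 10.8% TTNNGCAA, 7.81% TGANTCA, 13.6% TATAAA and 3.20% GAGGAAGT. The Tbxas1 window lies inside the gene as GENCODE M21 places it. GENCODE M21 has Hpgds begin at 65144908 on the minus strand, within the window shown, so both Hpgds matches also lie inside that gene. These matches are letters in a window and were not tied to any binding measurement. Their positions, before or past the start, hold for the RefSeq start alone. Where transcription starts in these cells was not measured. Of the 10 genes, 9 had a window.

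The 10 genes went both ways between the groups. Ptgs2, Ptges and Ptgis lay higher in every Cre library than in every flox library, Hpgds, Tbxas1 and Ptger4 lay lower in every Cre library, and Pla2g4a, Ptgs1, Hpgd and Ptger2 overlapped. The groups were thus apart for 6 of the 10 genes, against 39.6% of all 14795 genes in the fit. The same 3 and 3 genes had an adjusted p below 0.05 in edgeR's quasi-likelihood fit, where 15.3% of all genes did in either direction, 6.35% as higher in Cre and 8.94% as lower. Because the 10 were picked with these values known, nothing is read from those counts. Their median log2 fold change was 0.098, against 0.012 over all genes tested.

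**Figure D1:**
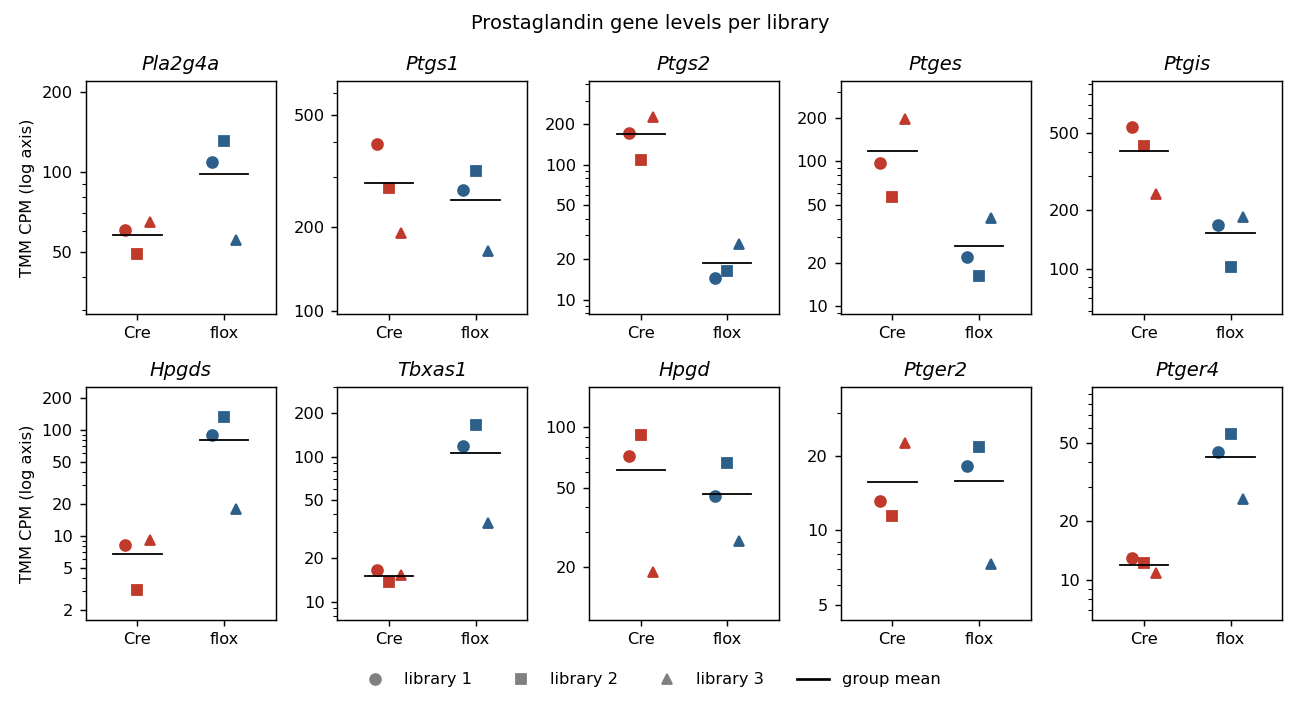
Level of each of the 10 prostaglandin genes in CPM with TMM factors (log axis) in the 3 Cre libraries, left, and the 3 flox libraries, right; marker shapes give the library number and lines the group means. Ptgs2, Ptges and Ptgis lie higher in every Cre library, Hpgds, Tbxas1 and Ptger4 lie lower in every Cre library, and the other 4 genes overlap.

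The phospholipase gene Pla2g4a encodes the cytosolic phospholipase A2 that frees arachidonic acid. It stood at 60.4, 49.0 and 64.4 CPM in Cre 1, 2 and 3 and at 109, 131 and 55.1 CPM in flox 1, 2 and 3. Flox 3 lay between the Cre libraries, so the groups overlapped. The log2 fold change was -0.76 ± 0.31 (SE), and it was -1.04 without flox 3. The gene is the neighbour of Ptgs2 on chromosome 1 in GRCm38 (Pla2g4a at 149829618 to 149961290 on the minus strand, Ptgs2 at 150100031 to 150108227 on the plus strand), with 138740 bases and 0 protein-coding genes between them in the GENCODE M21 annotation.

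Ptgs2, the inducible cyclooxygenase, had the highest log2 fold change of the 10. Its counts were 6905, 4474 and 9348 in Cre 1, 2 and 3 and 550.0, 564 and 1041 in flox 1, 2 and 3. In CPM this was 173, 108 and 229 in Cre, against 14.4, 16.2 and 25.9 in flox. The lowest Cre library lay well above the highest flox library, and library 3 was the highest of its group in both. The log2 fold change was 3.17 ± 0.35, a 9.005-fold higher level in Cre.

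Ptgs1, the constitutive cyclooxygenase (chromosome 2, 36230426 to 36252272), overlapped between the groups. It stood at 396, 276 and 191 CPM in Cre and at 269.9, 316 and 164 CPM in flox. Library 3 was the lowest of its group in both, and the log2 fold change was 0.20 ± 0.33. Its sign was not stable, at -0.070 without Cre 1 and -0.022 without flox 3. Ptgs1 shares 148 exon bases with Gm43621 on the opposite strand, and no source used here says whether reads were counted by strand.

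Ptgs2 took a larger share of the cyclooxygenase transcripts in every Cre library. Per length, in the authors' FPKM, Ptgs2 made up 32.8%, 30.4% and 57.3% of the summed Ptgs1 and Ptgs2 level in Cre 1, 2 and 3, against 5.65%, 5.43% and 15.01% in flox 1, 2 and 3. Library 3 had the highest share in each group, and no flox library reached the lowest Cre share. Ptgs2 exceeded Ptgs1 in Cre 3 alone, at 54.2 against 40.4 FPKM. The summed level of both was 129, 85.7 and 94.5 FPKM in Cre and 54.2, 61.6 and 39.7 FPKM in flox.

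**Figure D2:**
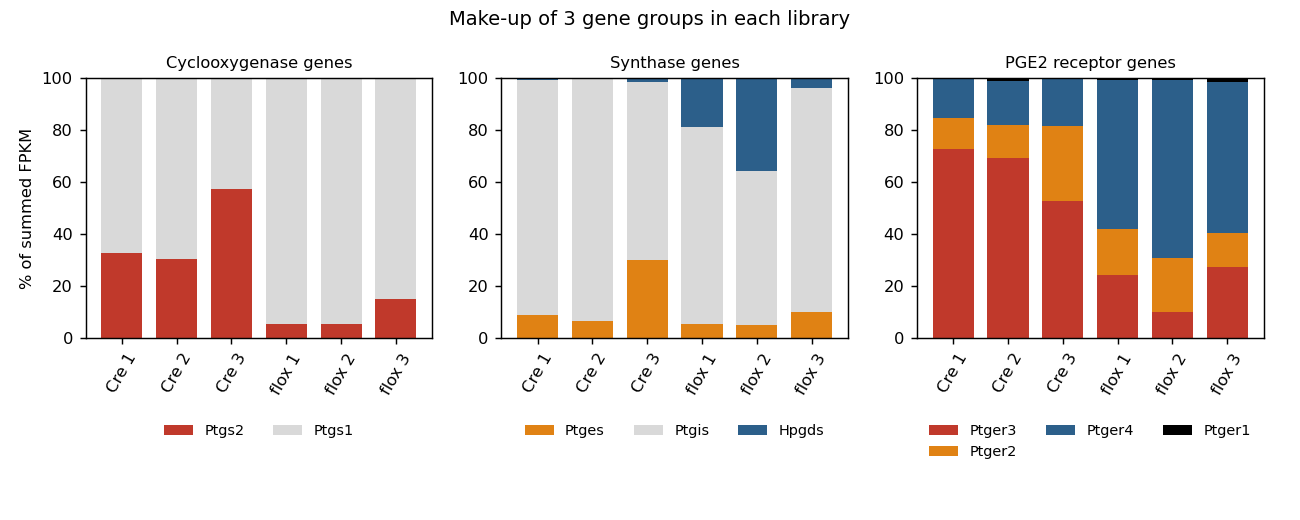
Shares of FPKM, in percent, that each gene takes of the cyclooxygenase genes, of Ptges, Ptgis and Hpgds, and of the prostaglandin E receptor genes, in each Cre library, left, and each flox library, right. Ptgs2 takes 30.4% to 57.3% of the cyclooxygenase level in Cre and 5.43% to 15.01% in flox.

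Among the terminal synthases, those for prostaglandin E2 and prostacyclin were higher in Cre and those for prostaglandin D2 and thromboxane lower. Ptges, the inducible microsomal prostaglandin E synthase (chromosome 2, 30889471 to 30929863), had 98.1, 56.8 and 197 CPM in Cre 1, 2 and 3, against 21.9, 16.1 and 40.5 CPM in flox 1, 2 and 3. Every Cre library lay above every flox library, and library 3 was again the highest of its group in both. The log2 fold change was 2.16 ± 0.53, and it was 1.58 without Cre 3. The other prostaglandin E synthase genes, which were no members of the 10, lay closer together: Ptges2 averaged 24.4 ± 2.94 CPM in Cre and 19.9 ± 0.757 CPM in flox (SD, n = 3 each), and Ptges3, also a co-chaperone, 179.9 ± 14.8 CPM in Cre and 141 ± 14.2 CPM in flox. Both lay higher in every Cre library than in every flox library. Neither passed edgeR's test, with adjusted p = 0.178 for Ptges2 and 0.0907 for Ptges3. Ptges3 passed under 2 of 15 alternatives, DESeq2 and edgeR without flox 3.

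Ptgis, the prostacyclin synthase (chromosome 2, 167191805 to 167240604), had 537, 430.1 and 243 CPM in Cre and 168, 102 and 186 CPM in flox. The groups did not overlap, but here library 3 was the lowest in Cre and the highest in flox, so that Cre 3 and flox 3 were close. The log2 fold change was 1.41 ± 0.34. The 9 mesothelial markers, none of them called, summed to 710 CPM in Cre 1, 842 CPM in Cre 2 and 203 CPM in Cre 3, against 177 to 263 CPM in flox, and Cre 3 was the lowest Cre library for Ptgis and for these markers. Per 1000 CPM of that sum Ptgis had 756, 511 and 1197 CPM in Cre and 640.1, 573 and 779 CPM in flox, which overlapped, and the part of mesothelial RNA was not tested. On that scale Ptges also overlapped, at 138, 67.4 and 974 CPM in Cre and 83.2, 91.0 and 170.1 CPM in flox. Ptgs2 did not, at 243, 128 and 1128 CPM in Cre and 54.9, 91.5 and 109 CPM in flox, though Cre 2 lay close to flox 3. A gene that rises more in Cre than the marker sum tends to come out higher on that scale by its construction. The high Cre 3 values go with its marker sum of 203 CPM. Flox 3 was the highest flox library for Ptgis and for the endothelial marker sum. Of the single endothelial markers, Stab2, Clec4g and Vwf were lowest in flox 3 among the flox libraries, and all others were highest there. In Cre the highest was Cre 1 for Ptgis and Cre 2 for that marker sum, and the part of endothelial RNA was not tested. Of Ptgis exons, 156 bases overlap the opposite-strand transcript 1110018N20Rik.

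Hpgds, the hematopoietic prostaglandin D synthase (chromosome 6, 65117293 to 65144908), had 8.11, 3.09 and 9.12 CPM in Cre and 90.3, 131 and 17.7 CPM in flox. All Cre libraries were under all flox libraries, but flox 3 lay far nearer to Cre than flox 1 and flox 2 did. The log2 fold change was -3.56 ± 0.78, an 11.8-fold lower level in Cre, and -4.03 without flox 3. Tbxas1, the thromboxane synthase (chromosome 6, 38875404 to 39084585), showed the same order of the flox libraries. It stood at 16.5, 13.6 and 15.1 CPM in Cre and at 118, 166 and 34.8 CPM in flox. The Cre libraries were close together and the flox libraries spread widely, and the log2 fold change was -2.82 ± 0.53, or 7.04-fold lower in Cre. Tbxas1 shares 144 exon bases with Gm42962 on the opposite strand.

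Both of these synthase genes were lower in Cre, as the macrophage marker sum was, with the flox libraries in the same order. Per 1000 CPM of the summed macrophage and Kupffer cell markers, Tbxas1 had 6.63, 5.56 and 5.21 CPM in Cre 1, 2 and 3 and 6.66, 7.31 and 4.30 CPM in flox 1, 2 and 3. Hpgds had 3.25, 1.27 and 3.14 in Cre and 5.10, 5.80 and 2.18 in flox on that scale. On this scale flox 1 and flox 2 lay above every Cre library for both genes, and the groups overlapped through flox 3 alone. For Tbxas1, flox 1 and Cre 1 were nearly equal, at 6.66 and 6.63 CPM. The part of macrophage RNA in their difference was not tested. Mast cells also use Hpgds. Their marker Cpa3 had 0 to 0.338 CPM in Cre and 0.0746 to 0.834 CPM in flox, 7 of the 9 mast cell markers had a row, 3 were tested and none was called (edgeR, adjusted p). The summed mast cell list stood at 252 to 383 CPM in Cre and 111 to 452 CPM in flox, most of it Kit and Hdc. The platelet marker Gp9 had 0 counts in all Cre libraries, and at most 0.0497 CPM in flox. For a Cre library taken alone, 0 counts allow up to 0.0751 CPM for counting error alone. None of the 3 tested of 7 platelet markers was called. The sum of the 7, most of it Pf4, was 14.5 to 32.8 CPM in Cre and 17.3 to 43.3 CPM in flox.

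**Figure D3:**
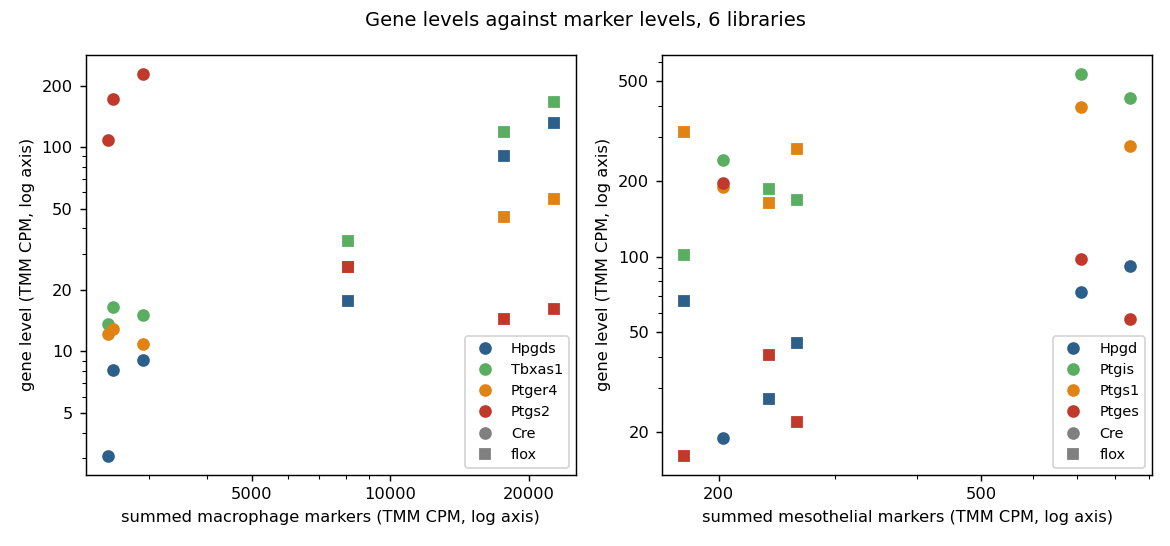
Levels of prostaglandin genes in CPM (colours) against the summed CPM of the 15 macrophage and Kupffer cell markers, left, and of the 9 mesothelial markers, right, all on log axes, with Cre libraries as circles and flox libraries as squares; Ptger4 and Ptgs2 coincide at 25.9 CPM in flox 3. Flox 3 has 8097 CPM of marker RNA, between the Cre libraries at 2438 to 2909 and flox 1 and flox 2 at 17714 and 22682, and Tbxas1 and Hpgds in flox 3 also lie between those libraries.

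Per length, Ptgis was the leading transcript among Ptges, Ptgis and Hpgds in all 6 libraries, with 90.4%, 93.0% and 68.5% of their summed FPKM in Cre and 75.8%, 59.3% and 86.0% in flox. Hpgds held 0.633%, 0.31% and 1.19% in Cre, against 18.8%, 35.6% and 3.80% in flox. Ptges held 8.98%, 6.67% and 30.3% in Cre and 5.36%, 5.12% and 10.2% in flox. The Hpgds share separated the groups, while the Ptges and Ptgis shares overlapped. Tbxas1 was left out of such sums, since its deposited FPKM imply a length of 37767 bases, 4.15 times the 9094 exon bases in GENCODE M21.

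Hpgd encodes the dehydrogenase that inactivates prostaglandins (chromosome 8, 56294585 to 56321043). It had 72.4, 91.8 and 18.9 CPM in Cre and 45.2, 66.5 and 27.1 CPM in flox. Library 3 was the lowest of its group in both, the groups overlapped, and the log2 fold change was 0.40 ± 0.58. Cre 3 was also the lowest Cre library in the mesothelial markers. Per 1000 CPM of their sum, Hpgd had 102, 109 and 93.3 CPM in Cre and 172, 375 and 114 CPM in flox. Mean Hpgd differed less between the groups than that sum did, so lower values in Cre on this scale follow from its construction.

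The prostaglandin E receptors Ptger2 and Ptger4 both couple to the G protein that raises cAMP. Ptger4 (chromosome 15, 5206661 to 5244187) had 12.9, 12.2 and 10.8 CPM in Cre and 45.4, 55.9 and 25.9 CPM in flox. All Cre libraries were lower than all flox libraries, and the log2 fold change was -1.83 ± 0.28. Ptger2 (chromosome 14, 44988195 to 45003820) had 13.2, 11.4 and 22.6 CPM in Cre and 18.2, 21.9 and 7.34 CPM in flox. Library 3 was the highest in Cre and the lowest in flox, the groups overlapped, and the log2 fold change was -0.0070 ± 0.44, with a sign that turned under 10 of 15 alternatives. Ptger4 shares 1015 exon bases with the pseudogene Gm15937 and 82 with Ttc33, and Ptger2 246 with Gm17173 and 144 with Gm49364, all on the opposite strand.

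Per 1000 CPM of macrophage markers Ptger4 had 5.2, 5.0 and 3.7 CPM in Cre and 2.6, 2.5 and 3.2 CPM in flox. A gene whose level is less reduced in Cre than the marker sum comes out higher on that scale by its construction, and Pla2g4a did so too, at 24.2, 20.1 and 22.1 CPM in Cre and 6.13, 5.76 and 6.81 CPM in flox.

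Ptger3, the prostaglandin E receptor that mainly lowers cAMP and is no member of the 10, rose in Cre. It had 40.7, 32.2 and 20.99 CPM in Cre 1, 2 and 3 and 12.6, 5.46 and 8.03 CPM in flox 1, 2 and 3, with no overlap, a log2 fold change of 1.85 ± 0.37 and an adjusted p = 0.0278 by edgeR. Per 1000 CPM of the mesothelial markers it had 57.4, 38.3 and 104 CPM in Cre and 47.9, 30.8 and 33.7 CPM in flox, which overlapped, and their part in the rise was not tested. Of the summed FPKM of the prostaglandin E receptor genes Ptger1 to Ptger4, Ptger3 held 72.8%, 69.5% and 53.0% in Cre, against 24.3%, 10.2% and 27.6% in flox. Ptger4 held 15.01%, 17.2% and 17.9% in Cre, against 57.3%, 68.5% and 58.3% in flox. These shares rest on the deposited lengths, and that of Ptger3 is 2174 bases, against 5688 exon bases in GENCODE M21. In CPM, Ptger2 stood above Ptger3 in Cre 3, at 22.6 against 20.99.

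**Figure D4:**
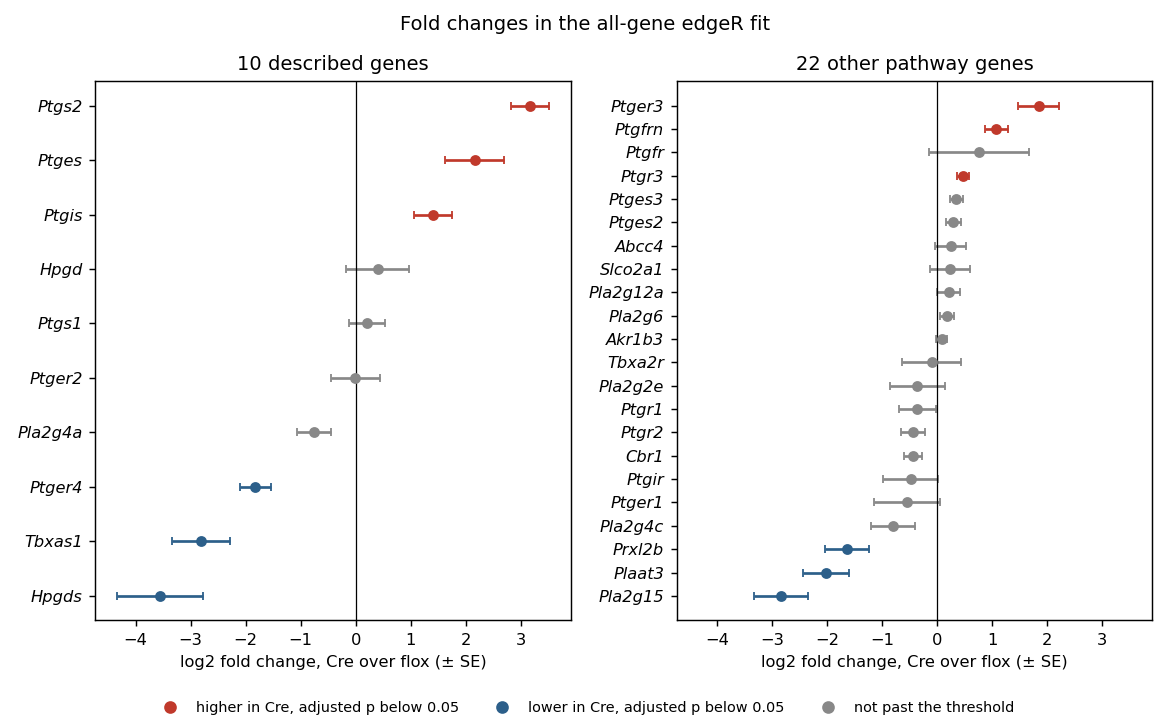
Log2 fold change of Cre over flox, with its standard error, for the 10 genes, left, and the 22 other prostaglandin pathway genes tested, right, each ordered by fold change; red points passed as higher in Cre, blue as lower and grey did not pass. Ptgs2 at 3.17 and Hpgds at -3.56 mark the ends, and 16 of the 22 other pathway genes did not pass the threshold.

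Of 35 other genes of the pathway, listed with earlier results of these data known, 31 had a row and 22 were tested; 3 rose, 3 fell and 16 did not pass, against 6.35% higher and 8.94% lower over all genes. Their median log2 fold change was -0.0082, against 0.012 over all genes. Ptger3 and 2 more rose. Ptgfrn, a membrane protein named for its effect on the prostaglandin F receptor, averaged 76.0 ± 13.5 CPM in Cre and 36.0 ± 8.96 CPM in flox (edgeR, log2 fold change 1.08 ± 0.21, adjusted p = 0.0273). Ptgr3, a prostaglandin reductase, averaged 39.8 ± 2.73 CPM in Cre and 28.7 ± 0.954 CPM in flox (edgeR, 0.47 ± 0.11, adjusted p = 0.0347).

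The 3 genes that fell were the lysosomal phospholipase Pla2g15, the phospholipase Plaat3 and the prostaglandin F synthase Prxl2b. Pla2g15 had 35.4, 26.8 and 31.4 CPM in Cre and 240.0, 344 and 83.3 CPM in flox, with flox 3 the lowest flox library as for Hpgds and Tbxas1 (edgeR, log2 fold change -2.83 ± 0.49, adjusted p = 0.0250). Per 1000 CPM of macrophage markers it had 14.2, 11.0 and 10.8 CPM in Cre and 13.5, 15.2 and 10.3 CPM in flox, which overlapped. Plaat3 averaged 6.88 ± 1.29 CPM in Cre and 27.9 ± 13.6 CPM in flox (-2.02 ± 0.42, edgeR adjusted p = 0.0302), and Prxl2b 7.15 ± 2.15 CPM in Cre and 22.2 ± 9.57 CPM in flox (-1.63 ± 0.40, edgeR adjusted p = 0.0413). On the macrophage marker scale both were higher in every Cre library, Plaat3 at 2.72, 2.32 and 2.83 CPM in Cre and 1.88, 1.67 and 1.53 CPM in flox, and Prxl2b at 3.11, 1.95 and 3.07 CPM in Cre and 1.34, 1.36 and 1.48 CPM in flox. Both fell less than the marker sum, so this too follows from the construction of the scale. Prxl2b shares 25 exon bases with Mmel1 on the opposite strand.

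Among genes that did not pass, the carbonyl reductase Cbr1 had a log2 fold change of -0.44 ± 0.16, the prostaglandin reductase Ptgr2 -0.44 ± 0.22, Pla2g4c -0.80 ± 0.40 and Pla2g6 0.17 ± 0.12; 1896 exon bases of Ptgr2 overlap Gm47484. The receptors for prostacyclin and thromboxane, the uptake transporter and Ptgds were picked after their values were seen. Ptgir, the prostacyclin receptor, had 2.33, 3.69 and 4.77 CPM in Cre and 4.99, 7.82 and 2.21 CPM in flox, and Tbxa2r, the thromboxane receptor, no more than 0.579 CPM in Cre and 0.604 CPM in flox. Slco2a1, which carries prostaglandins into cells, had 458, 645 and 403 CPM in Cre and 339.7, 265 and 669.8 CPM in flox. All 3 overlapped between the groups, and Slco2a1 shares 104 exon bases with n-R5s89 on the opposite strand. Ptgds, the other prostaglandin D synthase gene, had at most 0.0751 CPM in Cre and 0.105 CPM in flox and was not tested.

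Ordered by FPKM, which allows levels of different genes to be set side by side, the means in Cre ran from Ptgis (216 ± 82.4, SD, n = 3) through Ptgs1 (62.2 ± 23.2), Ptgs2 (40.8 ± 14.1), Hpgd (37.7 ± 23.4), Ptges (33.8 ± 20.3) and Pla2g4a (20.03 ± 2.66) to Ptger2 (3.85 ± 1.40), Ptger4 (3.80 ± 0.387) and Hpgds (1.67 ± 0.790). In Cre, Ptgis stood apart from Ptgs1, Pla2g4a from Ptger2, and Ptger4 from Hpgds, while the other neighbours overlapped. In flox the order was Ptgis (73.2 ± 24.5), Ptgs1 (47.7 ± 12.6), Pla2g4a (30.0 ± 10.6), Hpgd (25.1 ± 9.55), Hpgds (17.2 ± 12.0), Ptger4 (11.9 ± 3.73), Ptges (6.92 ± 3.79), Ptgs2 (4.12 ± 1.596) and Ptger2 (3.42 ± 1.51), and every pair of neighbours overlapped. The deposited lengths of these 9 genes were 0.478 to 1.26 times their exon bases in GENCODE M21, so the order holds for those lengths. Ptgs2 thus ranked 3 of 9 in Cre and 8 of 9 in flox.

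Likeness of pattern was measured over the 6 libraries as the root mean square distance of log2 CPM after each gene's own mean was subtracted, among 12094 genes. Nearest to Ptgs2 were Cth, which makes cysteine (0.37), the neutrophil chemokine Cxcl3 (0.51), the protease inhibitor Serpinb2 (0.54), the interleukin 13 receptor chain Il13ra2 (0.54) and the ephrin receptor Epha4 (0.55), against a median distance of 1.63. Ptges ranked 9 at 0.61 and Ptgis 480 at 1.09. Both had been picked with their levels in these same libraries known, so their ranks are a description. Cxcl3, for example, had 93.2, 74.8 and 218 CPM in Cre and 8.67, 7.79 and 34.7 CPM in flox. Nearest to Ptgs1 were Cep57l1 (0.066), Map3k5 (0.11), Iftap (0.11), E2f1 (0.12) and Krt19 (0.12), against a median of 0.51. Krt19 is also among the mesothelial markers, but its log2 fold change of 0.0047 was the lowest of that list, whose median was 1.42.

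The place of these genes in edgeR's fit depended on single libraries. Without Cre 1, Cre 2, flox 1 or flox 2, 0 of the 10 genes were past the threshold in each case, with 6 at an unadjusted p below 0.05; without Cre 3, 2 were past it as higher and 1 as lower, and without flox 3, 3 as higher and 4, with Pla2g4a among them, as lower. The other pathway genes went the same way, with 0 called without Cre 1, Cre 2, flox 1 or flox 2. The direction of Ptgs2, Ptges, Ptgis, Hpgds, Tbxas1 and Ptger4 was the same under all 15 alternatives run, with log2 fold changes of 2.91 to 3.47 for Ptgs2, 1.58 to 2.63 for Ptges, 1.17 to 1.69 for Ptgis, -4.03 to -2.49 for Hpgds, -3.23 to -1.23 for Tbxas1 and -2.08 to -1.39 for Ptger4.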

How the data were processed

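RNA-seq was measured in 3 Cre and 3 flox libraries, grouped by their titles. The authors deposited 1 table of counts per gene and FPKM for 22966 genes, of which 1349 were at 0 in every library. Per the labels' protocols, RNA was purified on columns and made into libraries with a SMARTER mRNA kit. The submitters' processing notes name GRCm 38, mm 10 and hg 38 with no role; no source used here names an aligner or a counter, or says whether strand was used. The deposited FPKM equal count over library total over length (0 of 11560 genes depart by over 1e-06), so they carry no factor for composition.

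From the counts, CPM with TMM factors, fold changes and adjusted p-values (Benjamini-Hochberg over 14795 genes kept by filterByExpr, with a minimum count of 10) were computed with edgeR 4.0.16 quasi-likelihood tests in R 4.3.3 on all 6 libraries. The steps were tested on simulated data. Alternatives used DESeq2 1.42.0, limma 3.58.1 (voom, and limma-trend on log2 of the deposited FPKM plus 1 or 0.1), library totals, other filters, the replicate block and each library left out. The ± after a log2 fold change is its SE.

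The 10 genes, the other pathway genes, the marker lists and the motifs were chosen with earlier results of these data known. Named were all 10 genes, each other pathway gene past the threshold and the 6 next by p, and the 5 genes nearest to Ptgs2 and to Ptgs1. Ptgir, Tbxa2r, Slco2a1, Ptgds, Ptger1, Pla2g2e and Bche fall outside that rule and were named after their values were seen. The same holds for the markers Col1a1, Stab2, Clec4g, Vwf, Kit, Hdc, Gp9 and Pf4. Coordinates and overlaps came from GENCODE M21 (18743 genes matched by symbol), promoter windows from RefSeq. Of the pathway genes, 4 were not analysed here.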

Additional observations from a re-analysis of the deposited data

How the results depend on the processing

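Over all genes, edgeR called 2263 (940 higher and 1323 lower in Cre, 41.5% higher). DESeq2 called 4334 and limma-voom 1404. Leaving out 1 library gave 0 to 5329: edgeR called 0 without Cre 1, Cre 2, flox 1 or flox 2 (3593, 3978, 3720 and 3562 genes at an unadjusted p below 0.05), 1369 without Cre 3 and 5329 without flox 3. The share called higher was 57.0% with library totals, which moved the median of all genes by 0.157, 58.4% and 57.7% by limma-trend on FPKM plus 1 and plus 0.1, where medians moved by 0.088 and 0.148, and 56.3% without Cre 3. Of the 10 genes, limma-voom called 1 higher and 1 lower and limma-trend on FPKM plus 1 called 3 higher and 1 lower. Of the 22 other pathway genes tested, 6 were called, and 0 to 11 with 1 library left out (0 without Cre 1, Cre 2, flox 1 or flox 2, 2 without Cre 3, 11 without flox 3).

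With the replicate block, edgeR called 0 genes (4296 at an unadjusted p below 0.05), 0 of the other pathway genes and 0 of the 10. Libraries of the same number did not deviate together (correlations of -0.033, -0.105 and -0.056), and no library correlated best with its own number. With 3 libraries a group, such small correlations cannot decide whether libraries of the same number were paired or shared a batch. Signs turned for Ptger2, at 0.171 with library totals, 0.027 with no count filter, 0.101 by limma-voom, 0.162 and 0.222 on FPKM plus 1 and plus 0.1 and 0.038 with the replicate block; with 1 library left out it was -0.346 to 0.323. Tbxa2r, -0.098 at first, was 0.047 with library totals and 0.0091 and 0.051 on FPKM plus 1 and plus 0.1, and -0.365 to 0.145 with 1 library left out. Over the same omissions Ptgs1 was -0.070 to 0.454, Ptgir -0.827 to 0.021, Slco2a1 -0.00052 to 0.735 and Pla2g2e -0.685 to 0.049. The causes were not tested.

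Limits: 3 libraries a group set the precision. A count of 0 in a library taken alone allows an expected count of up to 3 (0.0724 to 0.0862 CPM a library), so levels under this are uncertain.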
